A study of Sus scrofa with 14 samples.

Results

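A set of 7 regulators of mineralization was looked up by symbol in the table of read counts per gene, and 6 of the 7 had a row among its 25880 genes. The 6 were matrix Gla protein (MGP), osteopontin (SPP1), bone sialoprotein (IBSP), the pyrophosphate-generating enzyme ENPP1, the pyrophosphate regulator ANKH and tissue-nonspecific alkaline phosphatase (ALPL). No row carried the symbol of osteocalcin (BGLAP), which was therefore not analysed here. All 6 genes passed the minimum of 10 reads summed over the libraries and were among the 15707 genes tested.

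The study compared porcine knee tissues with meniscus cells grown in monolayer, using RNA sequencing of 14 libraries from skeletally mature female pigs. The tissue groups were explants: articular cartilage from the femur (n = 3), the inner zone of the medial meniscus (n = 3) and its outer zone (n = 3). The other groups were cells isolated from the inner zone (n = 3) or the outer zone (n = 2) and harvested at passage 3 (P3). No genetic change or drug treatment is described for any group, and the pigs came from an abattoir. The explants had been cultured for several days in serum-containing medium with ascorbate and proline, so the tissue groups are cultured explants and not fresh tissue. Tissue RNA and cell RNA were extracted by different procedures, so the effect of passaging and that of extraction cannot be told apart. Replicates are named by their label number, and the P3 cells came from other donors than the tissues. Each meniscus gave a single explant per zone, but which inner and outer libraries share a meniscus is not given in the sources used here, so p-values measure the spread between these libraries.

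Mineral forms in cartilage and bone when inorganic phosphate outweighs pyrophosphate, a small molecule that blocks the growth of hydroxyapatite crystals. ENPP1 makes pyrophosphate from ATP outside the cell, ANKH is needed for normal pyrophosphate levels there, and ALPL destroys pyrophosphate and frees phosphate. MGP is a vitamin K-dependent inhibitor of calcification that cartilage and vessel walls secrete, whereas SPP1 and IBSP are acidic phosphoproteins of bone that bind both mineral and cell-surface integrins.

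SPP1 and IBSP shared a stretch of chromosome 8 in the pig genome (Sscrofa11.1), both on the minus strand, with 122946 bases between them and 1 annotated gene, MEPE, in that interval. Acidic residues (aspartate and glutamate) made up 24.4% of the 303 codons of SPP1 and 24.7% of the 316 codons of IBSP in the RefSeq coding sequences, against 8.13% to 11.4% in MGP, ENPP1, ANKH and ALPL. SPP1 and IBSP each encoded 1 Arg-Gly-Asp tripeptide, the integrin-binding motif of this protein family, and the other members encoded none. The coding DNA around that tripeptide is shown because that motif sets SPP1 and IBSP apart from the other members, with its 9 bases in capitals. The SPP1 stretch lies at chr8:131079296-131079358 and the IBSP stretch at chr8:131208866-131208928, minus strand, and the tripeptide begins at codon 154 and codon 288.
SPP1: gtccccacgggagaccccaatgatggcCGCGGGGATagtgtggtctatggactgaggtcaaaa
IBSP: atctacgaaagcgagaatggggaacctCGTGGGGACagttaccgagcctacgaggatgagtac

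The 250 bases before the annotated start of MGP (chr5:57665022-57665271, plus strand), SPP1 (chr8:131085335-131085584, minus strand) and IBSP (chr8:131222049-131222298, minus strand) are shown because the fitted levels of these 3 matrix protein transcripts were lower in passaged cells of both zones. Capitals mark ACCACA, the core sequence that RUNX factors bind, searched on both strands as ACCACA and TGTGGT, and TATAAA, the TATA box sequence, searched on the gene's strand. Among 19556 RefSeq promoters of the same length, 14% held the first and 6.15% held the second, and the matches did not overlap one another. ACCACA began 39 bases before the start of MGP, 70 before that of SPP1 and 168 before that of IBSP, and TATAAA began 48 bases before that of MGP. The windows of ENPP1, ANKH and ALPL held neither, and each match is a description of letters only.
MGP: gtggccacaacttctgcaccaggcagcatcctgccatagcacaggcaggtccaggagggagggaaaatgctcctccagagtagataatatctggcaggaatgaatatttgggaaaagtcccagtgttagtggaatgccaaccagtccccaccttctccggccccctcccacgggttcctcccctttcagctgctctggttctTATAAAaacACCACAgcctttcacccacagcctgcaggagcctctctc
SPP1: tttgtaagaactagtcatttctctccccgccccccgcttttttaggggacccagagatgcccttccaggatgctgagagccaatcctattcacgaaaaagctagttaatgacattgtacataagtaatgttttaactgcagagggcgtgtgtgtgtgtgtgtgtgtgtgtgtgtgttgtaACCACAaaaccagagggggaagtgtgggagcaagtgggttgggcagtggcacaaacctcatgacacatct
IBSP: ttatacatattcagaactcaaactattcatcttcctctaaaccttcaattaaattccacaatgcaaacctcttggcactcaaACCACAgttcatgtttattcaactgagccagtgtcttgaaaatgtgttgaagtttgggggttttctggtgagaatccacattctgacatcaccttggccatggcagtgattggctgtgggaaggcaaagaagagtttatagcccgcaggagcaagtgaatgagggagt

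The libraries held 24440213 to 43304412 reads on genes, and levels are given as CPM, the read count scaled to a common library size corrected by the trimmed mean of M values. Differences are log2 fold changes with standard errors from edgeR's quasi-likelihood test fitted to all 14 libraries, with Benjamini-Hochberg adjustment over 15707 genes. A gene was called where the adjusted p was below 0.01 and the change exceeded 1 on the log2 scale. The labelled tissues held their markers: 9 measured chondrocyte markers summed to 38830 to 98943 CPM in cartilage, 6247 to 33796 CPM in inner tissue, 3083 to 12774 CPM in outer tissue and 194 to 544 CPM in P3 cells. Among outer tissue libraries, replicate 2 held 17.1 CPM of summed endothelial markers, whereas replicates 3 and 6 held 474 and 186 CPM, and results that change without it are named. In bulk samples, fewer cells of a type and less RNA per cell cannot be told apart.

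**Figure D1:**
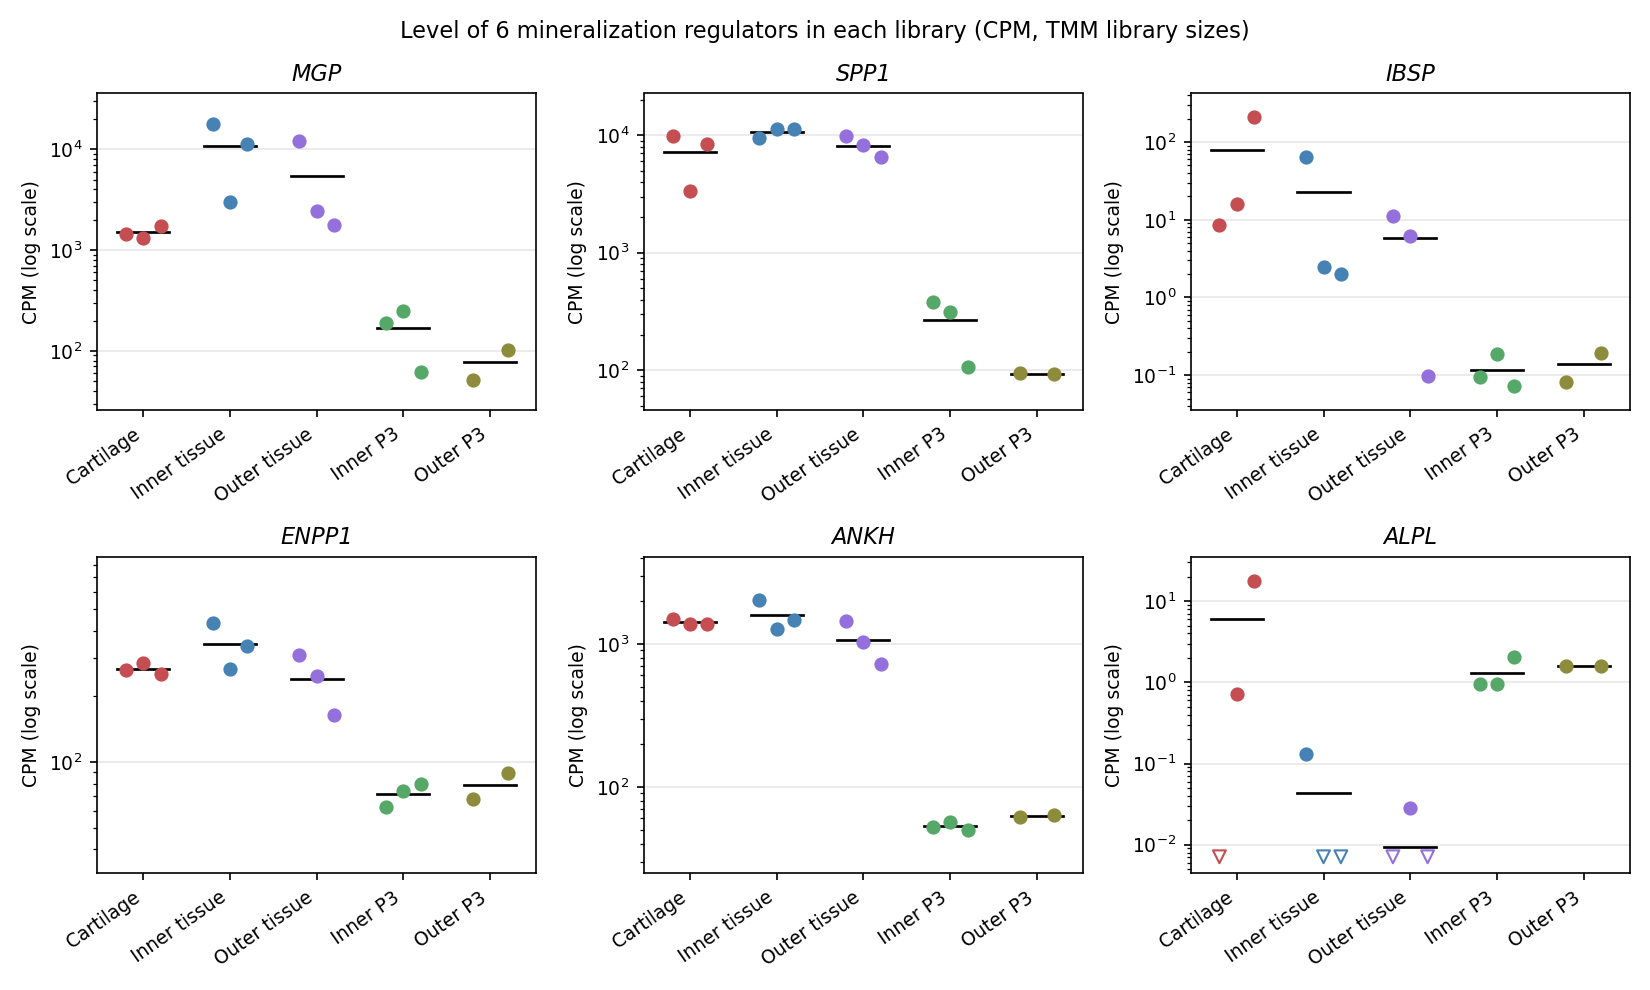
Each point is one library, the vertical axis is CPM on a log scale and differs between panels, horizontal bars are group means, and open triangles at the foot of the ALPL panel are libraries with 0 reads. MGP, SPP1, ENPP1 and ANKH lay lower in all 5 libraries of P3 cells than in any of the 9 tissue libraries, whereas ALPL lay higher in every P3 library than in any meniscus tissue library.

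MGP, SPP1, ENPP1 and ANKH fell in passaged cells of both meniscus zones against tissue of the same zone. IBSP had lower fitted values in cells of both zones but was called in inner cells only, at an adjusted p of 0.0099. The difference between zones in the IBSP fall was not called (log2 2.25, SE 3.89, adjusted p = 0.94). ALPL, the member with higher fitted values in cells, was called in neither zone. In inner zone cells at P3, MGP, SPP1, IBSP, ENPP1 and ANKH fell against inner tissue, so that 5 of 6 members were called, where 25.7% of all tested genes were called and 12.1% were called lower. In outer zone cells, MGP, SPP1, ENPP1 and ANKH fell against outer tissue, so that 4 of 6 were called, where 16.7% of tested genes were called and 8.3% were called lower. Without 1 library at a time these counts ranged from 4 to 6 in inner cells and from 2 to 5 in outer cells, the 2 being without outer P3 replicate 147. The median log2 fold change of the 6 members was -5.12 for inner cells and -4.69 for outer cells, beside 0.015 and -0.012 over all tested genes. The passaging comparison asks how far expansion in monolayer moves meniscus cells from the tissue.

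MGP, the vitamin K-dependent calcification inhibitor (chr5:57665272-57669360), measured 17885, 2978 and 11191 CPM in inner tissue 2, 3 and 5. In outer tissue it measured 12020 CPM in replicate 2, 2466 in replicate 3 and 1787 in replicate 6. Cartilage held 1441, 1309 and 1740 CPM in replicates 1, 2 and 3. Every meniscus tissue library was thus above every cartilage library, though the lowest outer value lay close to the highest cartilage value, and the inner and outer zones overlapped. In P3 cells MGP measured 188, 251 and 61.9 CPM in inner replicates 147, 148 and 149 and 51.9 and 102 CPM in outer replicates 147 and 148, all below the lowest tissue library.

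MGP fell by 6.00 on the log2 scale in inner cells (SE 0.92, adjusted p = 1.5e-04), a 64.0-fold lower level. In outer cells MGP fell by 6.14 (SE 1.11, adjusted p = 9.5e-04), and this call was lost without outer P3 replicate 147 (log2 -5.74, adjusted p = 0.018), without replicate 148 (log2 -6.71, adjusted p = 0.012) and in a fit to the libraries of that comparison alone (adjusted p = 0.012). Without outer tissue 2 it was -4.79 and still called (adjusted p = 0.0010). Within the meniscus, the 3 libraries with most MGP (inner 2, outer 2 and inner 5) had summed chondrocyte markers of 23574, 12774 and 33796 CPM. The 3 with least MGP (inner 3, outer 3 and outer 6) had 6247, 5826 and 3083 CPM. Cartilage had the highest sums (38830 to 98943 CPM) but less MGP (1309 to 1740 CPM) than any meniscus tissue library. The part of cell type in the MGP level was not tested.

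SPP1, the phosphoprotein that coats mineral and binds integrins and CD44 (chr8:131077786-131085334), measured 9896, 3330 and 8371 CPM in cartilage, 9450, 11305 and 11323 CPM in inner tissue, and 9805, 8237 and 6480 CPM in outer tissue. The 3 tissue groups overlapped, and cartilage replicate 2 was the lowest tissue library. P3 inner cells held 380, 310 and 108 CPM and P3 outer cells 94.4 and 92.0 CPM, all far below the lowest tissue library.

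SPP1 fell by 5.33 in inner cells (SE 0.52, adjusted p = 5.5e-06), a 40.2-fold lower level, and it fell by 6.45 in outer cells (SE 0.66, adjusted p = 2.2e-05), an 87.7-fold lower level. Both calls held without any single library. Macrophages and osteoclasts also make SPP1, and their 12 measured markers summed to 50.0 to 74.5 CPM in cartilage, 44.5 to 73.4 CPM in inner tissue, 62.7 to 197 CPM in outer tissue and 15.8 to 18.4 CPM in P3 cells. CD14 alone averaged 56.2 CPM in cartilage and 48.8 CPM in inner tissue, which is most of the sum there. In outer tissue 2, 3 and 6, ACP5 had 30, 208 and 313 reads and MMP9 had 30, 1320 and 2643. In cartilage 1, 2 and 3, ACP5 had 29, 5 and 5 reads and MMP9 had 5, 0 and 10. In inner tissue 2, 3 and 5, ACP5 had 22, 10 and 18 reads and MMP9 had 0, 21 and 241. The part of macrophages and osteoclasts in the SPP1 level was not tested.

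IBSP, a nucleator of hydroxyapatite in bone and mineralizing cartilage (chr8:131208281-131222048), had 208, 359 and 4473 reads in cartilage replicates 1, 2 and 3, or 8.51, 16.2 and 211 CPM. Inner tissue had 1968, 71 and 66 reads in replicates 2, 3 and 5, or 64.0, 2.49 and 2.00 CPM. Outer tissue had 276, 216 and 4 reads in replicates 2, 3 and 6, or 11.2, 6.14 and 0.0965 CPM. One library of cartilage and one of inner tissue thus carried most IBSP reads of their groups, and outer tissue 6 lay among the P3 cells. The 5 P3 libraries had 3 to 9 reads each. Mean levels ran from cartilage (78.6 ± 115 CPM, SD, n = 3) through inner tissue (22.8 ± 35.7) and outer tissue (5.80 ± 5.55) to outer P3 (0.138 ± 0.0808, n = 2) and inner P3 (0.117 ± 0.0597), and each neighbouring pair of groups overlapped.

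IBSP fell by 7.54 on the log2 scale in inner P3 cells against inner tissue (SE 2.13, adjusted p = 0.0099), and the call rested on the library with most reads: without inner tissue 2 the value was -4.21 (adjusted p = 0.086). It was also lost without any inner P3 library (adjusted p = 0.034 to 0.039), without cartilage 2, outer tissue 2, outer tissue 3 or either outer P3 library (adjusted p = 0.011 to 0.014), in a fit to the 6 libraries of the comparison (adjusted p = 0.010) and when tested against a 2-fold change (adjusted p = 0.028). In outer cells the difference was -5.28 (SE 2.44, adjusted p = 0.10), and the groups overlapped because of outer tissue 6. DESeq2 called that outer difference (log2 -5.39, adjusted p = 0.0067).

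The 2 libraries richest in IBSP were compared by markers of hypertrophic cartilage and bone, which did not all point one way. Cartilage 3 and inner tissue 2 were the only libraries with reads on all 6 hypertrophic chondrocyte markers, the other 12 having reads on 3 to 5 of them, although the summed level of that list was no higher there (99.5 CPM in cartilage 3 within 48.3 to 445 CPM in cartilage, 419 CPM in inner tissue 2 within 270 to 1764 CPM in inner tissue). Type X collagen (COL10A1) had 29, 4 and 187 reads in cartilage 1, 2 and 3 and 17, 0 and 7 reads in inner tissue 2, 3 and 5. MMP13, of the same hypertrophic list, went the other way in cartilage, with 9276, 595 and 484 reads in replicates 1, 2 and 3. In inner tissue 2, 3 and 5 MMP13 had 9189, 48465 and 6369 reads. The hedgehog ligand IHH had 8 reads in cartilage 3, 25 in inner tissue 2 and 0 in the other libraries. MEPE, the gene between SPP1 and IBSP, had 53 reads in cartilage 3 and 0 to 5 elsewhere. The 9 osteoblast and bone matrix markers summed to 261 CPM in cartilage 3 against 370 and 680 CPM in cartilage 1 and 2. Type I collagen (COL1A1 and COL1A2) made up most of that sum. Inner tissue 2 held 1201 CPM within 906 to 2120 CPM in inner tissue, and its COL1A1 was lowest of all libraries (4.88 CPM). Members of low level differed from the sum. In cartilage 1, 2 and 3, SP7 had 19, 9 and 88 reads, PHEX 29, 6 and 42, DMP1 8, 3 and 9 and SOST 4, 0 and 0. In inner tissue 2, 3 and 5, SP7 had 8, 2 and 0 reads, PHEX 6, 0 and 3, DMP1 5, 1 and 12 and SOST 31, 2 and 3. The part of calcified cartilage or bone in the IBSP and ALPL values was not tested.

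**Figure D2:**
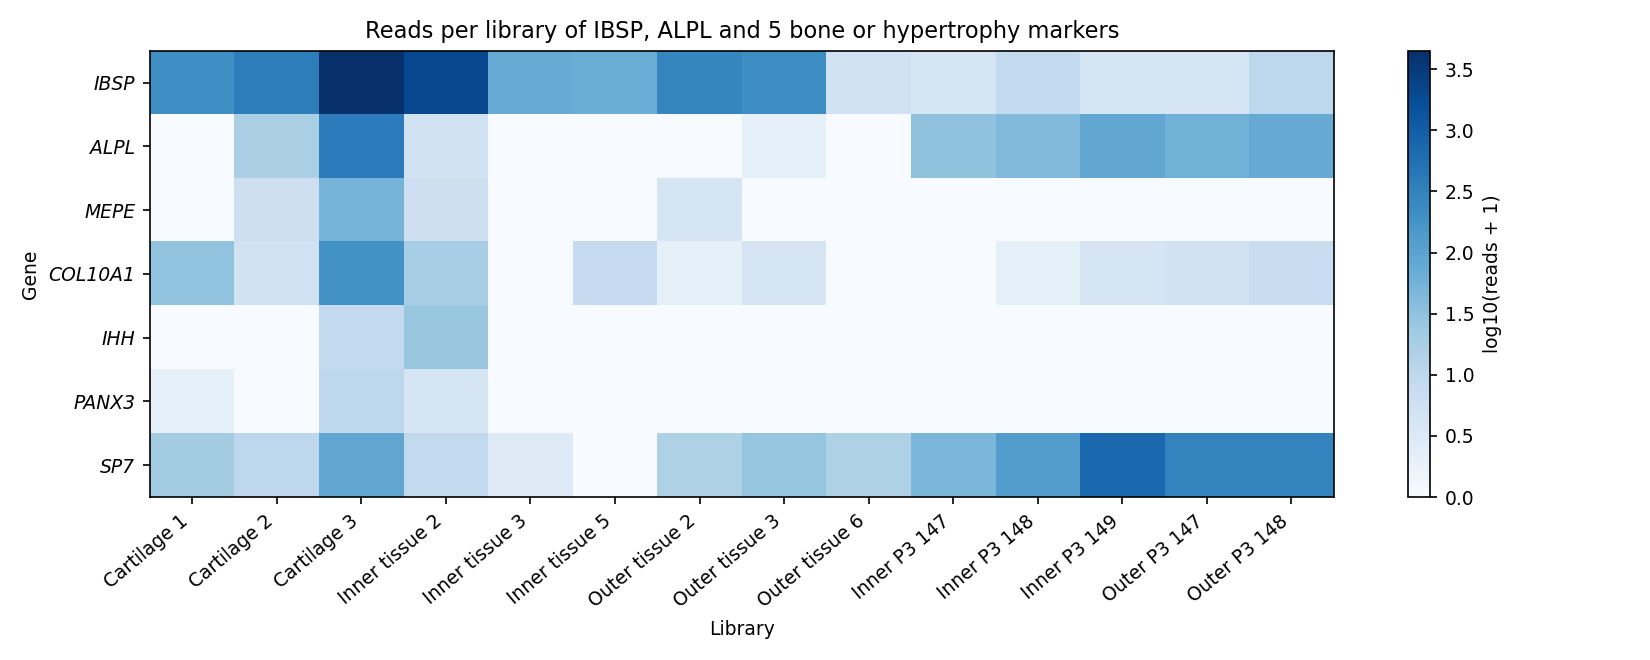
Rows are genes, columns are the 14 libraries, and colour is log10 of reads plus 1, so that white is 0 reads. Cartilage 3 (4473 IBSP and 370 ALPL reads) was the darkest column for IBSP, ALPL, MEPE, COL10A1 and PANX3, inner tissue 2 (1968 IBSP reads) stood out for IBSP and IHH, and the P3 cells combined ALPL and SP7 reads with 3 to 9 IBSP reads and 0 reads of MEPE, IHH and PANX3. The markers drawn are only a part of their lists. MMP13, which is not drawn, had 9276, 595 and 484 reads in cartilage 1, 2 and 3.

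SPP1 and IBSP did not keep a fixed proportion, although they are neighbouring members of one gene family. The number of SPP1 reads per IBSP read was 1164, 206 and 39.7 in cartilage 1, 2 and 3. It was 148, 4545 and 5654 in inner tissue 2, 3 and 5 and ranged from 877 to 67168 in outer tissue. The P3 cells lay between 472 and 4002, inside the wide tissue range of 39.7 to 67168. Their ratios rested on 3 to 9 IBSP reads a library, and the highest tissue ratio on 4 IBSP reads in outer tissue 6.

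ENPP1, the ectoenzyme that makes pyrophosphate (chr1:31724290-31796594), measured 265, 284 and 253 CPM in cartilage, 433, 266 and 340 CPM in inner tissue, and 310, 248 and 165 CPM in outer tissue. P3 inner cells held 62.2, 74.0 and 79.7 CPM and P3 outer cells 67.9 and 89.6 CPM. All P3 libraries were below all tissue libraries, and the tissue groups overlapped one another.

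ENPP1 fell by 2.27 in inner cells (SE 0.24, adjusted p = 8.8e-06), a 4.81-fold lower level. In outer cells it fell by 1.61 (SE 0.27, adjusted p = 5.4e-04), a 3.06-fold lower level, and this call was lost without outer P3 replicate 147 (log2 -1.43, adjusted p = 0.012), in a fit to the libraries of the comparison alone (adjusted p = 0.013) and when tested against a 2-fold change (adjusted p = 0.042).

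ANKH, a membrane protein needed for normal pyrophosphate levels outside the cell (chr16:4095582-4271073), measured 1487, 1368 and 1381 CPM in cartilage, 2022, 1275 and 1470 CPM in inner tissue, and 1448, 1025 and 723 CPM in outer tissue. P3 inner cells held 52.4, 56.9 and 49.6 CPM and P3 outer cells 61.1 and 63.4 CPM. The lowest tissue library thus held more than the highest cell library by a wide margin, and the cell libraries spread little.

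ANKH fell by 4.91 in inner cells (SE 0.27, adjusted p = 3.4e-07), a 30.0-fold lower level, and it fell by 4.10 in outer cells (SE 0.31, adjusted p = 3.8e-06), a 17.1-fold lower level. Both calls held under every alternative and without any single library. The ratio of ANKH to ENPP1 was lower in cells: there were 4.14 to 5.60 ANKH reads per ENPP1 read in the 9 tissue libraries and 0.622 to 0.900 in the 5 P3 libraries. These read ratios are not adjusted for length, and the annotated exons cover 13391 bases in ANKH and 5035 in ENPP1.

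ALPL, the phosphatase that removes pyrophosphate (chr6:79589695-79649646), had 0, 16 and 370 reads in cartilage 1, 2 and 3, or 0, 0.722 and 17.5 CPM. Inner tissue had 4, 0 and 0 reads in replicates 2, 3 and 5, and outer tissue had 0, 1 and 0 reads in replicates 2, 3 and 6. P3 inner cells had 30, 41 and 85 reads and P3 outer cells 59 and 73 reads, or 1.31 ± 0.622 CPM (SD, n = 3) and 1.59 ± 0.00527 CPM (SD, n = 2). ALPL was thus highest on average in cartilage (6.06 ± 9.87 CPM, n = 3), near the limit of detection in meniscus tissue, present in every cell library, and in cartilage carried almost wholly by replicate 3.

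Pooled over the group, ALPL in inner P3 cells (156 reads) was 30.8 times its level in inner tissue (4 reads), with a 95% exact interval from counting of 11.8 to 114. In outer P3 cells (132 reads) it was 161 times its level in outer tissue (1 read), with an interval of 28.3 to 6393, and both intervals cover counting error only. The cell and tissue libraries did not overlap in either zone, but the fit did not call either difference (inner log2 4.80, SE 1.78, adjusted p = 0.037, and outer log2 6.86, SE 2.17, adjusted p = 0.024). Both differences depended on the cartilage libraries in the fit: without cartilage 3 the adjusted p was 0.0077 in inner and 0.0044 in outer cells, without cartilage 1 it was 0.0073 and 0.0045, and in fits to the libraries of each comparison alone it was 0.0061 and 0.0052, all of which would be calls.

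ALPL reads per 1000 ENPP1 reads, which set the enzyme that removes pyrophosphate beside the one that makes it, were 15.3, 12.8 and 25.4 in inner P3 cells and 23.4 and 17.7 in outer P3 cells. In meniscus tissue they ranged from 0 to 0.300. In cartilage they were 0, 2.54 and 69.1, so that only cartilage 3 exceeded the cells.

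**Figure D3:**
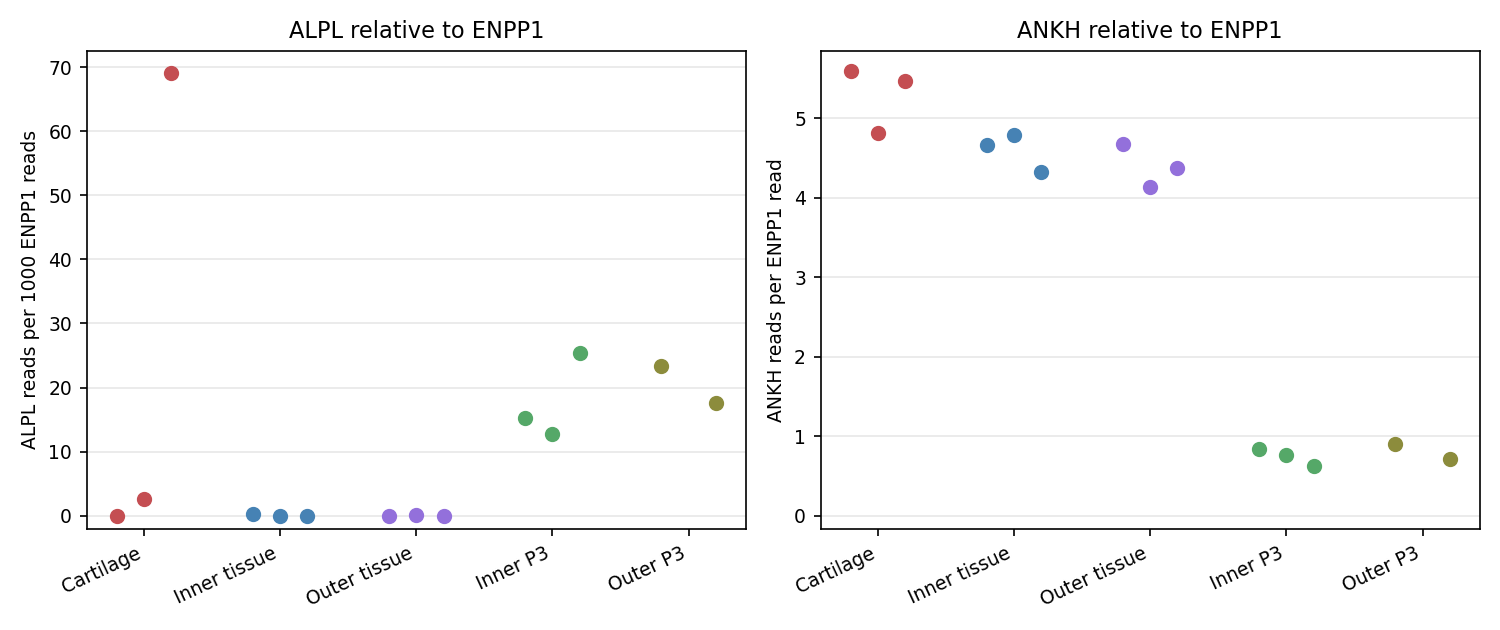
Each point is one library, with the number of ALPL reads per 1000 ENPP1 reads on the left and of ANKH reads per ENPP1 read on the right, both on linear axes and not adjusted for length. The 5 P3 libraries lay at 12.8 to 25.4 on the left against 0 to 0.300 in meniscus tissue, and at 0.622 to 0.900 on the right against 4.14 to 5.60 in the tissues.

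Meniscus tissue was set against cartilage to ask how the fibrocartilage differs from hyaline cartilage. Between inner tissue and cartilage 0 of 6 members were called by edgeR, where 9.05% of all tested genes were called, although 2 had an unadjusted p under 0.05 and DESeq2 called 2 (MGP and ALPL). MGP was 2.84 higher in inner tissue (SE 0.79, adjusted p = 0.017), with no overlap between the libraries. It became a call without inner tissue 3 (log2 3.28, adjusted p = 0.0088) or without outer tissue 2 (log2 2.84, adjusted p = 0.0045), a library outside that comparison. ALPL, with 386 reads in cartilage and 4 in inner tissue (ratio 131, 95% counting interval 50.9 to 484), missed the threshold at an adjusted p of 0.012, and was called without cartilage 1 (0.0018), with no filter on low counts (0.0088) and by DESeq2 (0.0029). Between outer tissue and cartilage 1 of 6 was called, where 15.1% of tested genes were called.

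That call was ALPL, at 386 reads in cartilage and 1 read in outer tissue, a ratio of 577 with a 95% counting interval of 103 to 22838 (adjusted p = 0.0054). It rested on cartilage 3: without it the fitted log2 value moved from -8.79 to -4.72 and the adjusted p to 0.046. The groups overlapped, since cartilage 1 had no read, and the call was also lost without outer tissue 2 (adjusted p = 0.016), outer tissue 3 (0.025) or outer tissue 6 (0.026) and in a fit to the libraries of the comparison (0.029). The ALPL call was lost too against a 2-fold change (adjusted p = 0.024) and with a replicate block (0.028). MGP was 1.86 higher in outer tissue than in cartilage (SE 0.76, adjusted p = 0.070) and was not called, and without outer tissue 2 the value was 0.51 (adjusted p = 0.55).

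SPP1, ENPP1 and ANKH differed from cartilage by 0.57, 0.37 and 0.17 in inner tissue and by 0.18, -0.15 and -0.41 in outer tissue, with adjusted p of 0.18 or more in each case. The standard errors were 0.43 for SPP1 and 0.23 for ENPP1 and ANKH. IBSP was -1.78 in inner tissue (adjusted p = 0.37) and -3.78 in outer tissue (adjusted p = 0.068). Without cartilage 3 the inner value turned to 0.90, so its direction rested on that library.

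The comparison of zones asks how the inner and outer meniscus differ. Between outer and inner tissue 0 of 6 members were called by edgeR and 0 by DESeq2, where 0.0318% of tested genes (5 genes) were called, and 2 of the 6 had an unadjusted p under 0.05. ANKH was -0.58 in outer tissue (SE 0.23, unadjusted p = 0.026, adjusted p = 0.19) and ENPP1 was -0.52 (SE 0.23, unadjusted p = 0.038, adjusted p = 0.22), with overlapping libraries for both. MGP was -0.98 (SE 0.75, adjusted p = 0.48), and -2.33 without outer tissue 2 (adjusted p = 0.053).

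Between outer and inner cells at P3, again 0 of 6 were called by either tool, where 0% of tested genes were called by edgeR, 505 of all genes had an unadjusted p under 0.05 and DESeq2 called 10. By edgeR, SPP1 was the 1 member with an unadjusted p under 0.05, being 1.51 lower on the log2 scale in outer cells (SE 0.51, unadjusted p = 0.011, adjusted p = 1). Its 2 outer libraries, at 94.4 and 92.0 CPM, lay just below the lowest inner library at 108 CPM. ANKH libraries of the 2 zones did not overlap either, at 61.1 and 63.4 CPM against 49.6 to 56.9 CPM, with a log2 difference of 0.23 (SE 0.26, adjusted p = 1).

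The interaction of zone and passage asked whether passaging changed a gene by a different amount in the zones, and 0 of 6 members were called by either tool, where 0% of tested genes were called by edgeR (1173 at an unadjusted p under 0.05) and 17 genes by DESeq2. ANKH had the smallest unadjusted p (0.035), its fall being smaller in outer cells by 0.81 (SE 0.34, adjusted p = 0.66). SPP1 was -1.12 (SE 0.66, adjusted p = 0.70), ENPP1 was 0.65 (SE 0.34, adjusted p = 0.70) and IBSP was 2.25 (SE 3.89, adjusted p = 0.94).

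Passaged cells were also set against cartilage, with the same cartilage libraries used for both zones and for the tissue comparisons. In inner P3 cells 5 of 6 members fell, where 32.5% of tested genes were called and 15.4% called lower, and in outer P3 cells 5 of 6 fell, where 31.2% were called and 14.3% called lower. ANKH fell by 4.74 in inner cells (SE 0.27, adjusted p = 1.3e-07) and it fell by 4.50 in outer cells (SE 0.32, adjusted p = 7.3e-07). The log2 values of SPP1 were -4.76 and -6.27 and those of ENPP1 -1.89 and -1.76, with adjusted p of 1.3e-04 or less.

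MGP fell by 3.16 in inner cells (adjusted p = 0.0045) and it fell by 4.29 in outer cells (adjusted p = 0.0030). The inner call was lost without cartilage 3 (adjusted p = 0.012), inner P3 147 (0.016) or inner P3 149 (0.019), and the outer call without outer P3 147 (0.039) or 148 (0.019). Against a 2-fold change the inner MGP call was lost as well (adjusted p = 0.020). IBSP fell by 9.32 in inner cells (adjusted p = 0.0028) and it fell by 9.06 in outer cells (adjusted p = 0.0098), with every P3 library under every cartilage library. Without cartilage 3 the inner value was -6.65 (adjusted p = 0.0098). The IBSP call was lost without any 1 of the 3 inner P3 libraries (adjusted p = 0.013 to 0.015), and in outer cells without cartilage 3 (log2 -6.40, adjusted p = 0.026) or without any of 8 other libraries (adjusted p = 0.010 to 0.073), the highest being without outer P3 147. Against a 2-fold change the outer IBSP call was lost as well (adjusted p = 0.022).

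ALPL was lower in cells than in cartilage by the fit, at -2.20 (adjusted p = 0.16) and -1.93 (adjusted p = 0.29), and was not called. Without cartilage 3 both values turned, to 1.87 and 2.15.

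**Figure D4:**
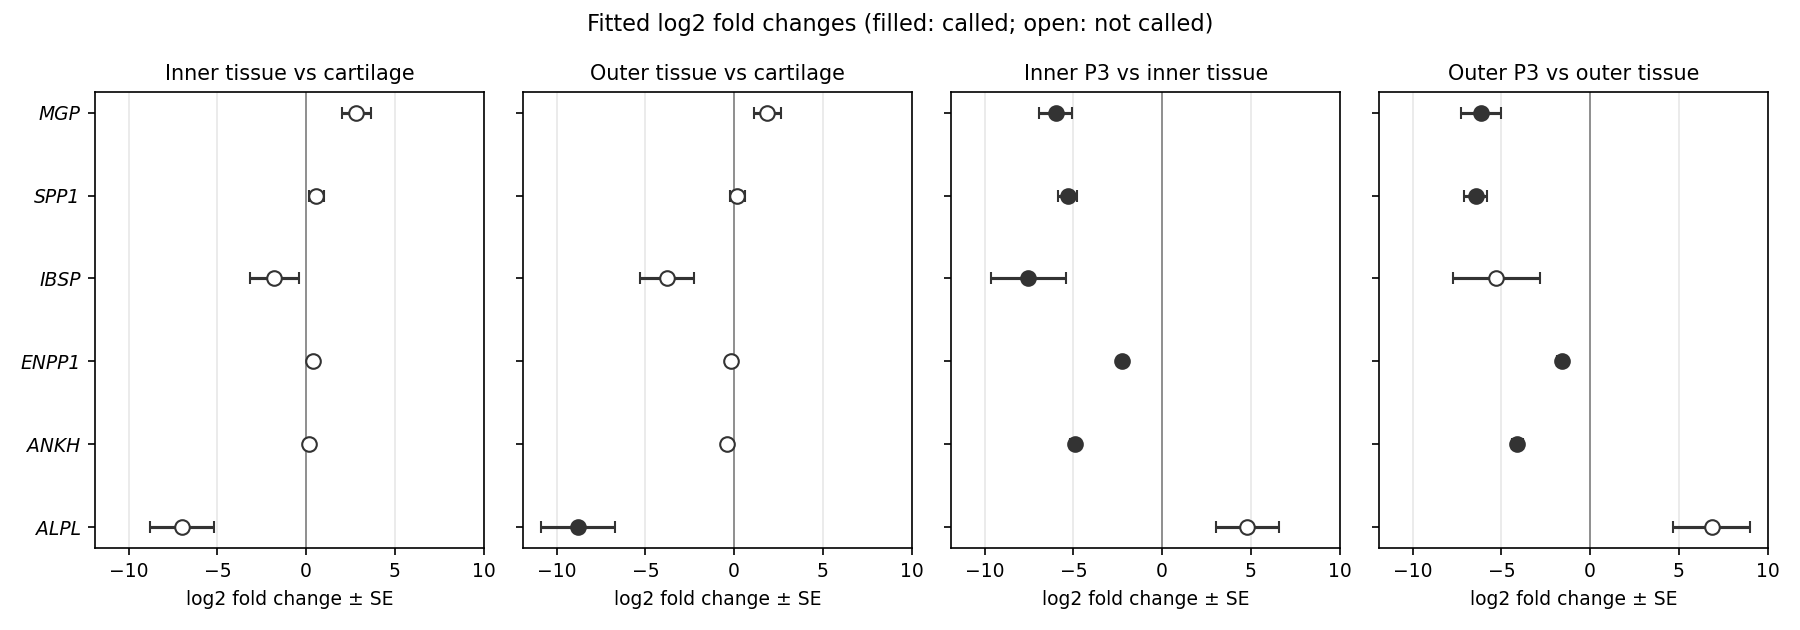
Each point is a fitted log2 fold change with its standard error, filled where called and open where not. MGP, SPP1, ENPP1 and ANKH lay well below 0 in both cell comparisons (-1.61 to -6.45) and close to 0 or above it against cartilage (-0.41 to 2.84), and ALPL lay on the opposite side of 0 from IBSP in both cell comparisons.

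The 6 genes differed widely in level once divided by exon length. In inner tissue MGP held 18171 CPM per kb, SPP1 6957, ANKH 119, ENPP1 68.8, IBSP 14.5 and ALPL 0.0139. Reads were counted per Ensembl gene whereas the lengths are those of RefSeq exons, so values per kb are approximate. In cartilage SPP1 (4684 CPM per kb) stood above MGP (2545), and ANKH (105), ENPP1 (53.1), IBSP (50.0) and ALPL (1.95) followed. The IBSP value there rested on cartilage 3, at 134 CPM per kb against 5.41 and 10.3 in replicates 1 and 2. In inner P3 cells the order was MGP (284), SPP1 (173), ENPP1 (14.3), ANKH (3.96), ALPL (0.420) and IBSP (0.0744), so ANKH lay under ENPP1 and IBSP under ALPL. Neighbours in that order whose libraries overlapped within a group were not tested against each other.

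By group, MGP stood highest in inner tissue (10685 ± 7466 CPM, SD, n = 3), then outer tissue (5424 ± 5722, n = 3), cartilage (1496 ± 221, n = 3), inner P3 (167 ± 96.2, n = 3) and outer P3 (76.7 ± 35.1, n = 2). Inner and outer tissue overlapped, and so did both cell groups. SPP1 followed the same order, at 10692 ± 1076, 8174 ± 1663, 7199 ± 3436, 266 ± 142 and 93.2 ± 1.69 CPM. ENPP1 stood at 346 ± 83.9 CPM in inner tissue, 267 ± 15.9 in cartilage, 241 ± 72.7 in outer tissue, 78.7 ± 15.4 in outer P3 and 72.0 ± 8.93 in inner P3. ANKH had that same order of groups, at 1589 ± 387, 1412 ± 65.4, 1065 ± 364, 62.3 ± 1.67 and 53.0 ± 3.68 CPM, and for both genes only the step from tissue to cells was a called difference.

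Genes whose profile over the 14 libraries lay closest to each member were found by the root mean square difference of centred log2(CPM + 0.5) among 11044 genes. This distance tends to be larger for genes that vary more or have few reads, so distances of different members cannot be ranked against each other. ENPP1 was nearest to BMF (0.18 log2 units), PITHD1 (0.21) and ACER1 (0.21). ANKH was nearest to HLF (0.37), PDCD4 (0.39) and IRAK2 (0.40), and SPP1 to MT2A (0.61), NOS2 (0.65) and RGS16 (0.71). MGP was nearest to AOC2 (0.66), RAB11FIP4 (0.70) and FOXA3 (0.90), ALPL to TESMIN (0.84), TNFRSF13C (0.86) and EBF4 (0.90), and IBSP to PRKCZ (1.17), EXTL1 (1.22) and EPS8L2 (1.28). None of the 6 members was among the 3 nearest to another.

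Osteoblast regulators moved in both directions in passaged cells. Of 16 tested genes of that list, 5 rose and 4 fell in inner P3 cells against inner tissue, and 3 rose and 2 fell in outer cells, where 25.7% and 16.7% of all tested genes were called. The median log2 fold changes were -0.20 and 0.13 beside the 0.015 and -0.012 of all tested genes, which also stand beside the medians of the lists that follow. SPARC, a collagen-binding matrix protein of bone (osteonectin), rose by 2.09 in inner cells (SE 0.44, adjusted p = 0.0015) and rose by 2.41 in outer cells (SE 0.47, adjusted p = 0.0016, and 0.0104 without outer P3 147). Both SPARC calls were lost against a 2-fold change. BMP2, an osteogenic growth factor, fell from 145 ± 98.9 CPM to 1.55 ± 0.60 CPM in inner cells (log2 -6.55, SE 1.01, adjusted p = 1.6e-04). In outer cells BMP2 fell by 4.83 (SE 1.12, adjusted p = 0.0046), a call lost without outer P3 147 (adjusted p = 0.041) or 148 (adjusted p = 0.050). The outer BMP2 call was also lost against a 2-fold change and in a fit to the libraries of the comparison alone.

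Transcription factors of the osteoblast lineage also moved both ways, and all but DLX5 were picked out after their values were seen. DLX5 went from 83.1 ± 48.2 CPM in inner tissue to 23.2 ± 6.05 CPM in inner P3 cells (log2 -1.84, SE 0.44, adjusted p = 0.0034), a call lost without inner tissue 2 (adjusted p = 0.018), inner P3 147 (0.014) or inner P3 148 (0.019). That call was also lost against a 2-fold change and in a fit to the libraries of the comparison alone. DLX6 fell by 1.66 in inner cells (SE 0.44, adjusted p = 0.0065), and neither was called in outer cells (DLX5 -0.61, adjusted p = 0.34, and DLX6 -1.15, adjusted p = 0.085). Whether the inner DLX6 call holds under the alternatives was not tested. MSX2 measured 0.932 ± 0.582 CPM in inner tissue and 18.9 ± 4.27 CPM in inner P3 cells (log2 4.34, SE 0.49, adjusted p = 1.6e-05), and it rose by 3.33 in outer cells (SE 0.48, adjusted p = 2.0e-04). SP7 (osterix), which bone formation requires, rose from 0.110 ± 0.135 to 6.90 ± 8.25 CPM in inner cells (log2 5.94, SE 1.24, adjusted p = 0.0014), and inner P3 149 held 688 of the 857 reads. In outer cells SP7 went from 0.557 ± 0.215 to 7.18 ± 1.08 CPM without being called (log2 3.69, SE 1.09, adjusted p = 0.017). RUNX2, the master regulator of that lineage, rose by 3.53 in inner cells (adjusted p = 0.0062) and by 4.33 in outer cells (adjusted p = 0.0038).

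RUNX2 was low in every tissue, at 0.419 ± 0.169 CPM in cartilage, and stood at 4.99 ± 1.83 CPM in inner and 8.85 ± 0.745 CPM in outer P3 cells. Both RUNX2 calls depended on single libraries: the inner one was lost without inner tissue 2 (log2 3.12, adjusted p = 0.029), inner tissue 5 (0.021) or any of the 5 P3 libraries (0.010 to 0.021), and the outer one without outer tissue 6 (0.014), outer P3 147 (0.019) or outer P3 148 (0.017). Both were also lost against a 2-fold change and in fits to the libraries of each comparison alone. Of 8 tested osteoblast and bone matrix markers, 4 rose in inner and 2 in outer cells, where 13.6% and 8.36% of all tested genes were called higher. MEPE had 0 reads in all P3 libraries, SOST 0 to 2 and DMP1 6 to 25. The summed level of that marker list was 112381 to 173135 CPM in P3 cells and 261 to 5136 CPM in the tissues, and type I collagen (COL1A1) alone stood at 71737 to 110523 CPM in P3 cells.

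Genes of the vitamin K pathway, by which MGP gains its calcium-binding residues, moved in both directions. Of 8 tested genes 2 rose and 2 fell in inner cells, and 1 rose and 2 fell in outer cells, beside 25.7% and 16.7% of all tested genes called. The list's medians were -0.36 and 0.54. VKORC1, which recycles vitamin K, went from 150 ± 12.4 to 56.0 ± 16.0 CPM in inner cells (log2 -1.42, SE 0.21, adjusted p = 1.0e-04) and fell by 1.55 in outer cells (SE 0.24, adjusted p = 3.2e-04). GAS6, another vitamin K-dependent protein, fell by 2.11 in inner cells (SE 0.26, adjusted p = 2.8e-05) and fell by 2.14 in outer cells (SE 0.30, adjusted p = 1.8e-04), whereas the related PROS1 rose by 3.22 in outer cells (SE 0.58, adjusted p = 9.4e-04). GGCX, the carboxylase itself, fell by 1.31 in inner tissue (SE 0.21, adjusted p = 8.1e-04) and fell by 1.58 in outer tissue (SE 0.21, adjusted p = 1.7e-04) relative to cartilage.

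In the list for phosphate, pyrophosphate and adenosine, 12 genes were tested, and 0 rose while 3 fell in inner cells and 2 in outer cells, shares close to the 25.7% and 16.7% of all tested genes called. The list's medians were -0.29 and -0.39. The adenosine transporter SLC29A1 fell by 2.14 in inner cells (SE 0.15, adjusted p = 7.6e-07) and fell by 2.51 in outer cells (SE 0.18, adjusted p = 2.9e-06). The phosphate importer SLC20A1 went from 197 ± 27.6 to 83.6 ± 2.62 CPM in inner cells (log2 -1.24, SE 0.17, adjusted p = 6.2e-05). SMPD3, a sphingomyelinase required for skeletal mineralization in mice, went from 18.4 ± 15.4 to 0.125 ± 0.0337 CPM in inner cells (log2 -7.13, SE 1.40, adjusted p = 9.3e-04).

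NT5E (CD73), which turns the AMP left by ENPP1 into adenosine and phosphate, stood at 1206 ± 187 CPM in cartilage, 373 ± 74.0 in inner tissue and 435 ± 93.9 in outer tissue. It fell by 1.69 in inner tissue (SE 0.29, adjusted p = 0.0011) and fell by 1.47 in outer tissue (SE 0.29, adjusted p = 0.0016) against cartilage. NT5E fell by 1.61 in outer P3 cells against outer tissue (SE 0.33, adjusted p = 0.0022), a call lost without outer P3 147 (log2 -1.22, adjusted p = 0.034). That call was also lost against a 2-fold change and in a fit to the libraries of the comparison alone. Against cartilage, 2 of the 12 genes rose and 2 fell in each meniscus zone. Of all tested genes, 4.45% were called higher and 4.6% lower in inner tissue, and 8.56% and 6.5% in outer tissue.

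Several receptors that bind SPP1 or IBSP rose in passaged cells. Of 9 tested receptor genes 4 rose and 0 fell in cells of each zone, where 13.6% of all tested genes were called higher in inner and 8.36% in outer cells. The list's medians were 1.34 in inner and 0.98 in outer cells. Integrin alpha 8 (ITGA8) had 0 reads in inner tissue and 57022 reads in inner P3 cells, which makes it at least 15001-fold higher against a floor of 3 reads over the group, and it rose by 9.13 in outer cells (SE 0.71, adjusted p = 9.8e-06). Integrin alpha 5 (ITGA5) went from 115 ± 12.2 to 545 ± 57.4 CPM in inner cells (log2 2.25, SE 0.18, adjusted p = 1.5e-06), and it rose by 1.85 in outer cells (SE 0.19, adjusted p = 2.3e-05). Integrin beta 1 (ITGB1) rose by 1.34 (SE 0.19, adjusted p = 8.0e-05) and by 1.39 (SE 0.20, adjusted p = 2.3e-04).

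CD44, the hyaluronan receptor that also binds SPP1, stood at 16.2 ± 10.8 CPM in cartilage and rose by 2.49 in inner tissue (SE 0.45, adjusted p = 0.0015) and by 3.14 in outer tissue (SE 0.46, adjusted p = 2.8e-04). Both CD44 calls were lost with a replicate block. The inner one was also lost against a 2-fold change and in a fit to the libraries of the comparison alone. Against cartilage 2 of the 9 receptors rose and 1 fell in inner tissue, where 4.45% of all tested genes were called higher and 4.6% lower. In outer tissue 3 rose and 0 fell, where 8.56% were called higher and 6.5% lower. The receptor that fell in inner tissue was ITGA8, with 49 reads in cartilage and 0 in inner tissue, at least 22.2-fold lower. That call was lost in 14 of 21 alternatives. SPP1 was not called in either of those comparisons.

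Among 9 tested genes of matrix vesicles and calcium handling, 3 rose and 3 fell in inner cells, and 3 rose and 2 fell in outer cells, beside 25.7% and 16.7% of all tested genes called. The list's medians were 0.61 and 0.31. Annexin A6 (ANXA6), a calcium-binding protein of matrix vesicles, rose by 1.55 in inner cells (SE 0.20, adjusted p = 4.2e-05) and by 1.58 in outer cells (SE 0.22, adjusted p = 1.5e-04). Carbonic anhydrase CA12 rose by 5.49 (SE 0.69, adjusted p = 3.4e-05) and by 4.13 (SE 0.65, adjusted p = 3.7e-04). The calcium channel TRPV4 fell by 3.99 in inner cells (SE 0.46, adjusted p = 1.9e-05) and fell by 3.08 in outer cells (SE 0.52, adjusted p = 6.4e-04, and 0.012 without outer P3 147).

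Of the other acidic phosphoproteins and their kinase and protease (DMP1, MEPE, FAM20C and PHEX), 0 of 4 were called by edgeR in either zone of P3 cells, 0 were called by DESeq2, and 1 had an unadjusted p under 0.05. That gene was FAM20C, the kinase of secreted phosphoproteins such as SPP1, which was -0.83 in inner cells (SE 0.13, adjusted p = 2.5e-04) and -0.84 in outer cells (SE 0.15, adjusted p = 9.7e-04), short of the fold required for a call. It measured 128 ± 12.4 CPM in inner tissue and 72.3 ± 7.74 CPM in inner P3 cells, without overlap.

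**Figure D5:**
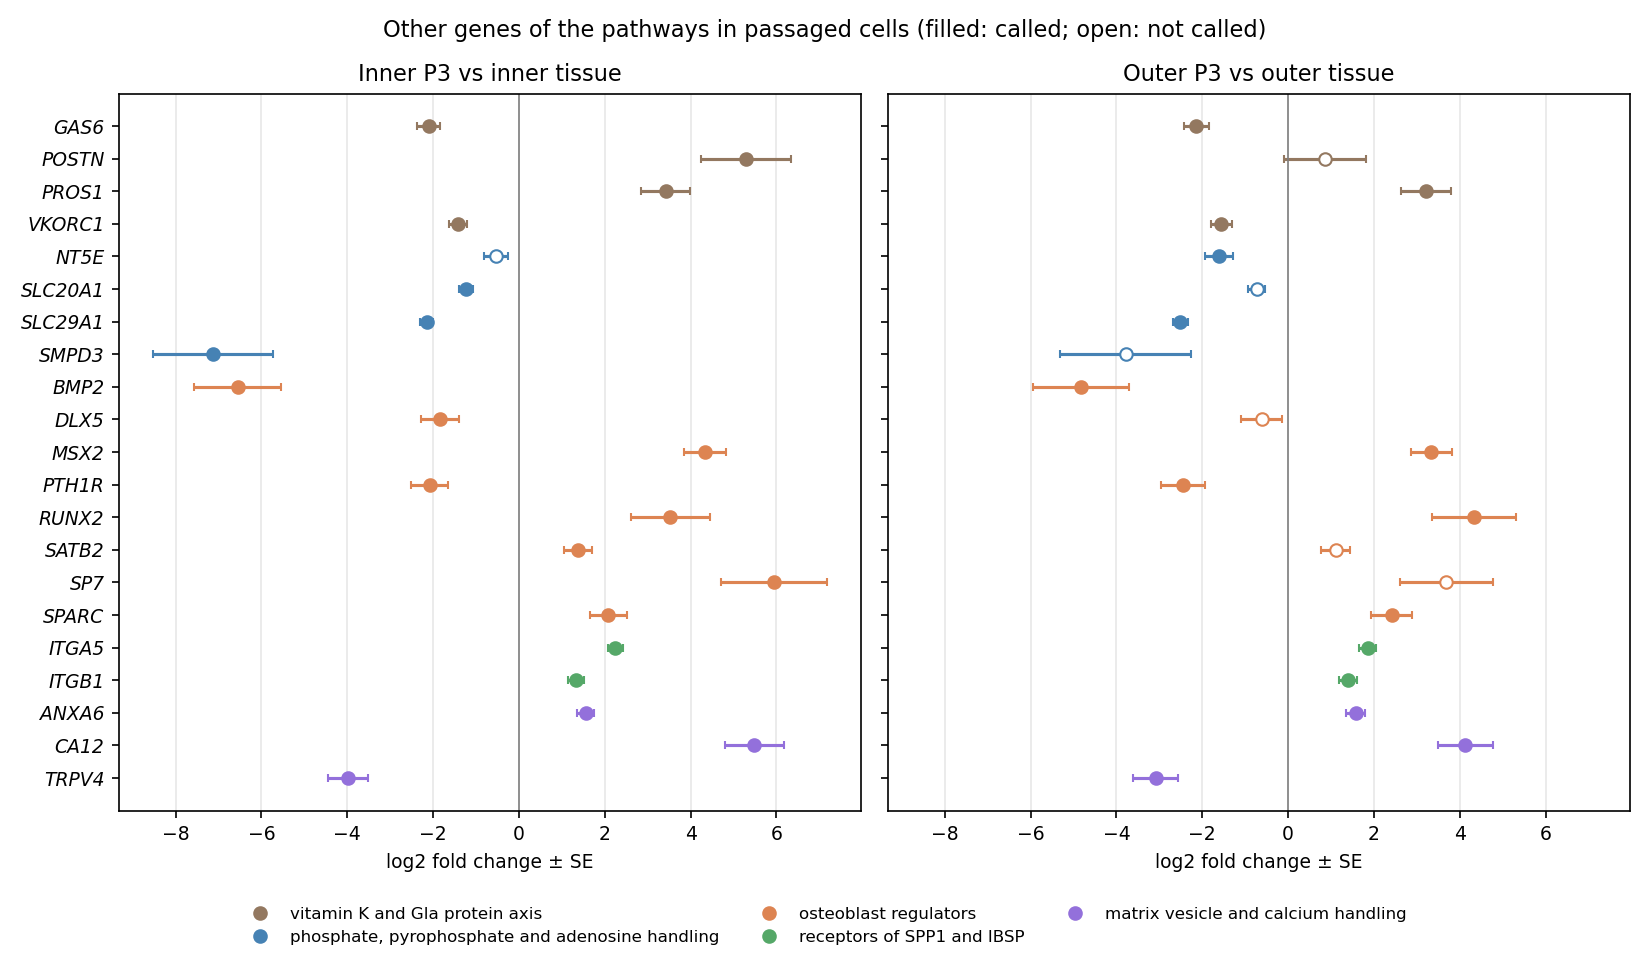
Points are fitted log2 fold changes with standard errors for other genes of the pathways, in inner P3 cells against inner tissue and in outer P3 cells against outer tissue, filled where called and open where not, with colour for the gene list; ITGA8 is left out because it had 0 reads in inner tissue. SPARC, MSX2, RUNX2, ITGA5, ITGB1, ANXA6 and CA12 were called higher in both panels, and GAS6, VKORC1, SLC29A1, BMP2, PTH1R and TRPV4 lower in both.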

How the data were processed

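Raw read counts per gene were deposited by the authors for all 14 libraries in one table. By the study's descriptions of its samples and methods, libraries were made with a stranded mRNA kit and reads were trimmed with Trim Galore and cutadapt. Reads were aligned with STAR to the Sscrofa11.1 genome, and uniquely mapped reads were counted with HTSeq. The versions of these tools, and whether HTSeq counted by strand, are not given in the sources used here, so reads of overlapping or antisense genes could be shared.

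Counts were used as deposited. Genes with at least 10 reads in total were tested (15707 of 25880) with the quasi-likelihood F test of edgeR 4.0.16 in R 4.3.3, TMM library sizes, all 14 libraries and Benjamini-Hochberg adjustment, and called at an adjusted p below 0.01 with a log2 fold change beyond 1. The standard error was the log2 fold change divided by the square root of F. The test was checked on simulated data, in which genes kept a common level in all groups apart from planted changes. That check does not cover a gene almost without reads in a group or carried by a single library. Alternatives were other size factors, no filter, filterByExpr, a test against a 2-fold change, the libraries of each comparison alone, a replicate block, leaving out each library and DESeq2 1.42.0. Depth was 24440213 to 43304412 reads. Read ratios of low genes carry exact 95% binomial intervals, which cover counting error only.

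The members and gene lists were chosen with earlier results of these data known. List genes were named by a rule, up to 3 called genes of highest mean CPM per list and comparison. RUNX2, SP7, MSX2, DLX6 and FAM20C in passaged cells and the marker genes were named after their values were seen. Exon lengths, coding sequences and promoters came from RefSeq for Sscrofa11.1. Python 3.11.15, matplotlib 3.10.9 and pysam 0.24.0 were used for sequences and plots.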

Additional observations from a re-analysis of the deposited data

How the results depend on the processing

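Over the 6 genes and 9 comparisons, 1109 values were recomputed under alternatives, of which 1034 kept their direction and their side of the threshold, 43 lost a call, 13 gained one and 19 changed sign. No member called by the main test changed sign. Depth limited ALPL in meniscus tissue (0 to 4 reads a library) and IBSP in cells (3 to 9 reads). Their direction in cells against tissue of the same zone did not turn without any single library.

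Between inner tissue and cartilage the number of members called was 1 with no filter, 2 with DESeq2 and 0 to 1 without single libraries. Between outer tissue and cartilage it was 0 against a 2-fold change and 0 with the libraries of the comparison alone, and 0 to 1 without single libraries. Without single libraries, 2 to 5 members were called for outer cells against outer tissue, and 3 to 5 for cells of either zone against cartilage.

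Leaving out single libraries gave these ranges of log2 fold change. Inner tissue against cartilage ranged from -5.12 to 0.90 for IBSP (0.90 without cartilage 3) and from -0.027 to 0.31 for ANKH. Outer tissue against cartilage ranged from -0.16 to 0.48 for SPP1 and from -0.37 to 0.060 for ENPP1. Outer against inner tissue ranged from -2.89 to 1.33 for IBSP and from -3.63 to 1.86 for ALPL, both positive without inner tissue 2. Outer against inner cells ranged from -0.54 to 0.78 for IBSP (-0.03 without inner P3 149) and from -0.085 to 0.32 for ENPP1. Cells against cartilage ranged from -2.79 to 1.87 (inner) and from -2.52 to 2.15 (outer) for ALPL, both positive without cartilage 3. The zone by passage term ranged from -0.72 to 1.21 for MGP (positive without inner tissue 3, outer tissue 2, inner P3 148 or outer P3 147, at 0.30, 1.21, 0.27 and 0.26), from -1.07 to 3.15 for IBSP and from -1.58 to 3.91 for ALPL. Beyond the libraries named, the cause was not tested.

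The replicate number shared by libraries is not stated to mark an animal. Deviations of same-numbered libraries correlated at 0.482 and 0.275 for inner and outer tissue 2 and 3 and at 0.241 and 0.278 for cells 147 and 148, but at -0.223 to -0.0228 with cartilage. Inner and outer tissue libraries of different numbers correlated at -0.393 to 0.295, the highest being inner 3 with outer 6. The 2 outer P3 libraries were centred on their own mean, so their deviations mirror each other. With a replicate block 0 members were called between outer tissue and cartilage, ENPP1 there was 0.0498, and IBSP between the cell groups was -0.011. The block gave 389 calls over all genes for inner tissue against cartilage, 600 for outer tissue against cartilage, 89 between the tissue zones, 14 between the cell groups and 20 for the interaction.

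Counts over all genes also moved with the test. Against a 2-fold change they fell from 1421 to 268 and from 2366 to 571 for inner and outer tissue against cartilage, from 4033 to 1894 and from 2617 to 945 for cells against their tissue, and from 5097 to 2868 and from 4902 to 2584 for cells against cartilage. With the libraries of each comparison alone they were 913 and 1547 for tissue against cartilage and 1516 for outer cells against outer tissue. The 5 calls between tissue zones became 0 under either of these, 353 with DESeq2 and 0 to 363 without single libraries. DESeq2 made 10 calls between the cell groups and 17 for the interaction, which had 15 without outer tissue 2. Without cartilage 3 inner tissue against cartilage had 913, and outer cells against outer tissue had 1688 without outer P3 147 and 1592 without outer P3 148. Of 91 calls of named list genes, 39 held under every alternative and 10 were lost only against a 2-fold change. In all 52 were lost under at least 1 alternative, and not every loss is named with its gene.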
